A study of Homo sapiens with 16 samples.

Results

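Untreated SK-N-SH cells, the controls of a study of the antipsychotic risperidone, are described here from the 4 arrays whose titles call the cells untreated, of 16 arrays in all. The line comes from a human neuroblastoma, a tumour of the sympathetic neural crest. The other 12 arrays, of cells given risperidone, were not used for any value below except in choosing the probe set that stands for each gene. Per the labels' protocols, the cells grew for 48 h in minimal essential medium with 10% fetal bovine serum and reached 95% confluence, and total RNA extracted with Trizol was biotin-labelled for Human Genome U219 arrays. The protocols also say that control cultures were given the solvent DMSO at up to 1% of the volume, so the cells called untreated may have been solvent-treated, and they do not say when the controls were harvested. All cells are of 1 established line. The labels name the arrays biological replicates but say nothing of separate cultures, so the SDs below cover the spread between these arrays, which may be technical.

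Neuroblastoma cells are known to move between an adrenergic state, run by the transcription factors of sympathetic neurons and chromaffin cells, and a mesenchymal state, run by factors shared with neural crest cells and fibroblasts. Sympathetic cells make noradrenaline from tyrosine, store it with granins in dense-core vesicles, and release it beside peptides such as neuropeptide Y. SK-N-SH is known for holding neuroblast-like and flat, substrate-adherent cells side by side. Whole-culture RNA cannot tell a gene read by few cells from one read at a low level by all of them.

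A level is the deposited log2 expression value of 1 probe set (robust multi-array average, RMA), averaged over the 4 arrays and given as mean ± SD with n = 4. A percentile is the rank of a gene's level among all 18239 genes measured. Probe sets differ in how well they bind, so levels of different genes are set side by side as signals, not as amounts of RNA. A gene was taken as above background where its level passed the 95th percentile of 334 olfactory receptor genes, a family read mainly in nasal epithelium, in the same array and in all 4 arrays. That background lay at 4.11, 4.00, 3.88 and 4.11 in replicates 1 to 4. By that rule 11224 of 18239 genes, 61.5%, were above background, and 9 of the 334 olfactory receptor genes were. With each gene read from its dimmest probe set, the one of lowest mean over all 16 arrays, 7132 genes or 39.1% would pass. Pearson's r between pairs of arrays, across genes, lay between 0.997 and 0.999, and the median SD of a gene above background was 0.10.

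**Figure D1:**
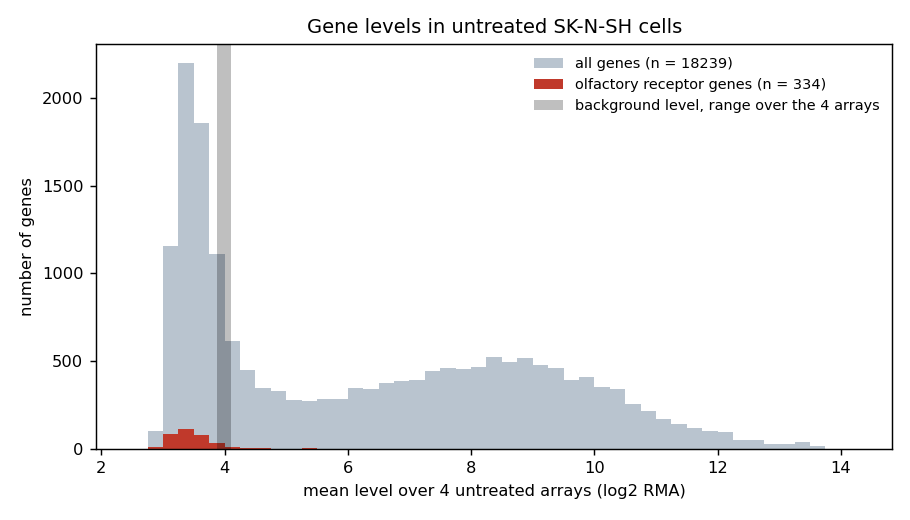
Histogram of the mean level over the 4 untreated arrays (x axis, log2 RMA) with the number of genes in each bin (y axis), for all 18239 genes and for the 334 olfactory receptor genes. The olfactory receptor genes sit under the left peak, and the grey band spans the background levels of the 4 arrays, from 3.88 to 4.11.

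Levels formed a crowded low peak and a broad upper range. Of all genes, 7015 (38.5%) were not above background, 2273 were above it with a level under 6, 3203 lay from 6 to under 8, 3758 from 8 to under 10, 1682 from 10 to under 12, and 308 (1.69%) at 12 or more. The 25 genes of highest level comprised 22 ribosomal protein genes with the translation factor gene EEF1A1, TPT1 and the prothymosin gene PTMA. RPS2 headed them at 13.89. Among the 182 genes of the top 1%, which began at a level of 12.41, 61 coded for ribosomal proteins and 17 belonged to the lists described below. Those 17 were VIM, LDHA, GAPDH, LDHB, ITGB1, MT2A, STMN2, COL3A1, CHGA, SOX4, TWIST1, GATA2, HAND2, ENO1, B2M, TPI1 and PGAM1. They take in both a neuronal microtubule regulator and a fibrillar collagen, and both adrenergic factors and the mesenchymal factor TWIST1.

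The 4 markers given for the cells were all above background. DBH, dopamine beta-hydroxylase, which turns dopamine into noradrenaline, read 10.62, 10.59, 10.37 and 10.46 in replicates 1 to 4 (10.51 ± 0.12, SD, n = 4), at percentile 92.9. VIM, vimentin, the filament protein of mesenchymal and immature neural cells, read 13.16, 13.35, 13.34 and 13.34 (13.30 ± 0.09), at percentile 99.8. FN1, fibronectin, read 10.28, 10.41, 10.40 and 10.36 (10.36 ± 0.06). PRRX1, a homeobox factor of mesenchyme, read 8.88, 9.11, 9.04 and 9.25 (9.07 ± 0.15). FN1 and PRRX1 have further probe sets, from 3.44 to 9.89 for FN1 and at 5.08 for PRRX1, while DBH has no other. An adrenergic enzyme and mesenchymal products were thus read in the same RNA.

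The adrenergic regulators were nearly all above background, 17 of 18 measured (94.4%, beside 61.5% of all genes). Their median level was 9.67, against 5.85 over all genes. SOX4, an early neural factor, read 12.65, 12.73, 12.73 and 12.57. GATA2, which acts in sympathetic precursors, read 12.53, 12.61, 12.70 and 12.57, and HAND2, which drives noradrenergic differentiation, read 12.49, 12.47, 12.43 and 12.48. All 3 lay in the top 1% of genes. Below them came TFAP2B at 11.75 ± 0.03, the LIM homeobox factor ISL1 at 11.04 ± 0.01, GATA3 at 10.88 ± 0.14, SOX11 at 10.56 ± 0.11 and the chromatin organiser SATB1 at 10.44 ± 0.10. PHOX2A, the homeobox factor that switches on the enzymes of noradrenaline synthesis, read 9.79, 9.79, 9.84 and 9.71. MYCN, the oncogene amplified in many neuroblastomas, stood at 7.08, 7.23, 6.98 and 6.80, at percentile 59.1, with its other probe sets between 3.37 and 5.83. LMO1 (6.48 ± 0.23) and LMO3 (5.38 ± 0.13) were lower still. The zinc finger factor INSM1, at 3.23 ± 0.09, was the member not above background, and it has no second probe set.

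Mesenchymal regulators were above background in 21 of 24 cases (87.5%, beside 61.5% of all genes), with a lower median level, 7.24. TWIST1, a basic helix-loop-helix factor of cranial mesenchyme, stood apart from the rest at 12.54, 12.70, 12.72 and 12.61. The next member, TEAD1, a DNA-binding partner of YAP1, read 10.52, 10.58, 10.33 and 10.50. ZEB1 (9.49 ± 0.08), YAP1 (9.36 ± 0.15), PRRX1 (9.07 ± 0.15), AEBP1 (8.60 ± 0.06), SNAI2 (8.46 ± 0.13) and ZEB2 (8.36 ± 0.17) followed. The AP-1 subunit FOSL1 read 5.00, 4.75, 5.53 and 4.53, and TWIST2 5.23, 5.76, 5.96 and 5.81, with SDs of 0.43 and 0.32 against the median of 0.10. MEOX1 (3.58), GLI3 (3.49) and MEOX2 (3.26) were not above background. From the dimmest probe set of each gene, 10 of the 24 would be.

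**Figure D2:**
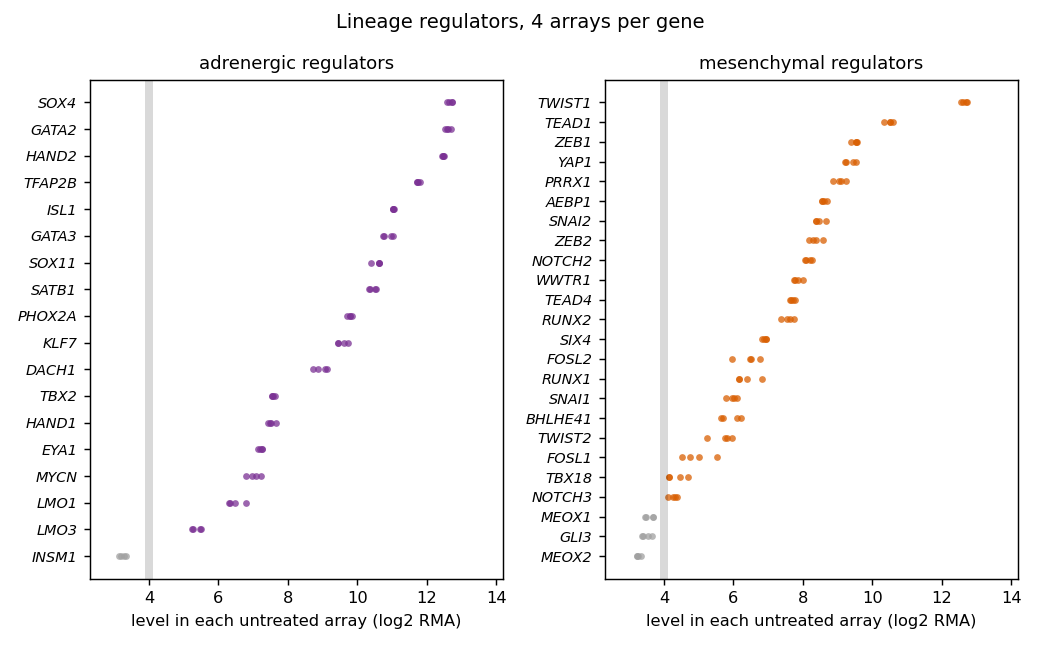
Level (x axis, log2 RMA) of each adrenergic regulator (left) and mesenchymal regulator (right), 1 dot per untreated array, ordered by mean. The grey band spans the background levels of the 4 arrays, and grey dots mark genes not above background. TWIST1 at 12.64 sits apart from the other mesenchymal factors, while 3 adrenergic factors exceed 12.

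Of the factors of early neural crest and glia, 7 of 14 were above background (50%, near the 61.5% of all genes). ETS1 read 9.37, 9.60, 9.75 and 9.46, and FOXD1, a forkhead factor, 8.61, 8.94, 9.01 and 9.06. SOX9 (8.07 ± 0.13), MSX2 (7.23 ± 0.16), the stem cell factor SOX2 (6.02 ± 0.44), MITF (5.70 ± 0.13) and the glial calcium-binding protein gene S100B (5.32 ± 0.08) were the others. SOX2 lay between 5.44 in replicate 1 and 6.50 in replicate 4. SOX10, the regulator of Schwann and melanocyte precursors, stood at 3.75, FOXD3 at 2.97, PAX3 at 3.56, TFAP2A at 3.75, the Schwann precursor cadherin gene CDH19 at 3.60, the neuregulin receptor gene ERBB3 at 3.33 and MSX1 at 4.03, none of them above background. The paralogues TFAP2B and TFAP2A therefore lay on opposite sides of it. From the dimmest probe sets 3 of the 14 would pass.

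All 20 genes of neuronal structure were above background (100%, beside 61.5% of all genes). Their median level was 10.57, against 5.85 over all genes. STMN2, which regulates microtubules in growing axons, read 12.96, 12.90, 12.73 and 12.78. The RNA-binding protein gene ELAVL4 stood at 11.99 ± 0.10, UCHL1 at 12.02 ± 0.04, the neuronal tubulin gene TUBB3 at 11.73 ± 0.09 and the growth cone gene GAP43 at 10.62 ± 0.13. Among synaptic genes, SNAP25 stood at 10.56 ± 0.08, near the list median. SYT1 at 9.09 ± 0.09, SYP at 7.27 ± 0.06 and VAMP2 at 4.30 ± 0.09, close to background, lay lower. MAPT, the gene of tau, stood at 6.15 ± 0.11 beside MAP1B at 11.52 ± 0.13. From dimmest probe sets 12 of the 20 would pass.

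Intermediate filament genes joined neuronal and mesenchymal members, 14 of 18 above background (77.8%, beside 61.5% of all genes). Besides VIM, the neurofilament gene NEFL read 11.54, 11.43, 11.54 and 11.48, NEFM 10.41, 10.41, 10.39 and 10.41, and INA, alpha-internexin, 10.29, 10.32, 10.12 and 10.39. NEFH (7.28 ± 0.13) and the peripheral neuron filament gene PRPH (5.15 ± 0.22) were lower. NES, nestin, a filament of neural precursors, stood at 8.99 ± 0.09. KRT18 read 9.66, 9.75, 9.91 and 9.87, whereas its usual filament partner KRT8 stood at 4.02 and was not above background, and neither were KRT5, KRT14 and the astrocyte filament gene GFAP. The epithelial keratin gene KRT19 (5.19 ± 0.15) and the muscle filament gene DES (4.68 ± 0.19) were above it.

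The secretory machinery of sympathetic cells was read strongly, and its regulatory sequences are shown because cyclic AMP control of granin and peptide genes is textbook knowledge. The cyclic AMP response element TGACGTCA was looked for on both strands in the RefSeq promoters, 250 bases before to 50 after each gene's start, of the 25 genes of catecholamine synthesis, granins and neuropeptides that have exactly 1 promoter in the table. It was found in 4 of them. The 150 bases before the start of each of these 4 genes are given on the strand of the gene, with the element in capitals (GRCh38.p14). They lie at chr14:92923000-92923149, plus strand, for CHGA and at chr7:101165570-101165719, minus strand, for VGF. Those of SST lie at chr3:187670395-187670544, minus strand, and those of CARTPT at chr5:71719125-71719274, plus strand.
CHGA: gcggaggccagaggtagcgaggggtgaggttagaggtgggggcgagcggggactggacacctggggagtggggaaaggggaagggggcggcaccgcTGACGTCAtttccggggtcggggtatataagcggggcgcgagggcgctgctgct
VGF: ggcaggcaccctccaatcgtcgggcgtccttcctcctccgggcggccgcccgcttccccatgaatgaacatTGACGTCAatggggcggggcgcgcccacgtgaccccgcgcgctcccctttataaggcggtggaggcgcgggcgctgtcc
SST: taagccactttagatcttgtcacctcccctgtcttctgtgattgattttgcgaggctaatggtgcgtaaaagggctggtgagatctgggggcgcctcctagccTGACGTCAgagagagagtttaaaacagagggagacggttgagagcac
CARTPT: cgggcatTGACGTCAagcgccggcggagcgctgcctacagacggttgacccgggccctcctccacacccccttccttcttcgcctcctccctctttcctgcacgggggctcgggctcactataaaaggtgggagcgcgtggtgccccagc
The element began 54 bases before the start of CHGA and 79 before that of VGF, granin genes with levels of 12.68 ± 0.07 and 11.66 ± 0.06. It began 47 bases before the start of SST, somatostatin, and 143 before that of CARTPT, whose levels of 3.38 and 3.13 were not above background. Promoters with the element thus belonged to genes at both ends of the range in these cells. Of all 10652 genes with exactly 1 promoter in the table, 305 (2.86%) held it.

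All 9 genes of granins and prohormone processing were above background (100%, beside 61.5% of all genes). CHGA, chromogranin A, which condenses the vesicle contents, read 12.76, 12.68, 12.66 and 12.60. SCG2, secretogranin II, read 12.25, 12.30, 12.53 and 12.25, and PAM, which amidates peptide ends, 11.80, 11.95, 11.92 and 11.80. CHGB (9.70 ± 0.12), the carboxypeptidase gene CPE (9.44 ± 0.09), SCG3 (9.22 ± 0.06), SCG5 (8.95 ± 0.11) and PCSK1N (6.96 ± 0.16) completed the list. The arrays differed by at most 0.33 in any of these 9 genes.

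The enzymes of catecholamine synthesis and breakdown, 12 of 12 above background (100%, beside 61.5% of all genes), were uneven along the pathway. TH, tyrosine hydroxylase, the rate-limiting first enzyme, read 4.84, 5.08, 4.79 and 4.90, at percentile 44.1, and its other probe sets lay between 3.06 and 3.55, below background. DDC, which makes dopamine from DOPA, read 11.35, 11.47, 11.41 and 11.54. CYB561, which returns electrons to ascorbate for DBH inside the vesicle, read 12.03, 12.03, 12.11 and 11.84. GCH1 (9.94 ± 0.07), PTS (9.43 ± 0.15) and SPR (7.42 ± 0.03) make the tetrahydrobiopterin that TH needs, and QDPR (10.24 ± 0.09) and PCBD1 (9.55 ± 0.12) regenerate it. PNMT, which makes adrenaline, stood at 5.72 ± 0.21. The breakdown enzymes MAOB and MAOA stood at 8.81 ± 0.06 and 8.19 ± 0.10. TH was thus the lowest member of the list although the enzymes on either side of dopamine and its cofactor pathway were in the upper range, and 7 of the 12 would pass from their dimmest probe sets.

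Transmitter transporters were above background in 10 of 23 cases (43.5%, beside 61.5% of all genes), and 3 of them stood clear of the rest. SLC6A2, the noradrenaline transporter and a marker used in neuroblastoma imaging, read 10.28, 10.26, 10.16 and 10.10. SLC5A7, the choline transporter of cholinergic neurons, read 9.35, 9.39, 9.04 and 9.23. SLC18A1, the vesicular monoamine transporter of chromaffin cells, read 8.59, 8.42, 8.38 and 8.42, while SLC18A2, the form of neurons, read 5.02, 5.00, 4.84 and 4.96. The vesicular acetylcholine transporter gene SLC18A3 (4.42 ± 0.08) lay just above background. Dopamine, serotonin and GABA carriers (SLC6A3 3.64, SLC6A4 3.79, SLC32A1 3.50) were not above it. The count rested on dim genes, since it was 4 with the background set at the 99th percentile of olfactory receptor genes and 3 with keratin-associated protein genes as the reference.

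Neuropeptide genes were above background in 8 of 19 cases (42.1%, beside 61.5% of all genes), and 4 of these 8 had levels over 10. VIP, vasoactive intestinal peptide, read 11.84, 12.04, 12.11 and 12.13, GAL, galanin, 12, 11.96, 11.77 and 11.91, and NPY, neuropeptide Y, 10.73, 10.91, 11.17 and 11.05. NTS, neurotensin, read 9.96, 9.85, 10.18 and 10.20. ADM, adrenomedullin, a vasodilator peptide, stood at 9.65 ± 0.11, NMB at 8.08 ± 0.14, CALCB at 6.22 ± 0.16 and CRH at 4.61 ± 0.24. PENK (3.03), TAC1 (3.10), CARTPT (3.13), POMC (3.33), PDYN (3.36), SST (3.38), CALCA (3.50), ADCYAP1 (3.60), GRP (3.88), CCK (3.98) and UCN (4.29) were not above background.

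Receptor genes named for VIP, galanin and neuropeptide Y were not above background, and the lists hold no receptor of neurotensin. VIP receptor genes VIPR1 and VIPR2 stood at 3.89 and 3.93, the galanin receptor genes GALR1, GALR2 and GALR3 at 2.81, 3.33 and 3.49, and the neuropeptide Y receptor genes NPY1R, NPY2R, NPY4R and NPY5R at 3.72, 4.16, 3.39 and 3.82. Among all peptide and lipid receptors 10 of 27 were above background (37%, beside 61.5% of all genes). ADCYAP1R1, the receptor that binds PACAP and also, more weakly, VIP, read 8.01, 8.05, 7.83 and 8.11 while the gene of PACAP itself, ADCYAP1, was not above background. S1PR3, a receptor for sphingosine 1-phosphate, read 8.04, 8.01, 8.11 and 8.25, and S1PR2 (7.33 ± 0.10) and the lysophosphatidic acid receptor gene LPAR1 (7.42 ± 0.14) followed. The bradykinin receptor gene BDKRB1 stood at 6.69 ± 0.18 and the nociceptin receptor gene OPRL1 at 5.96 ± 0.08. OPRM1, the mu opioid receptor, lay between 4.21 in replicate 1 and 5.11 in replicate 3. With each gene at its dimmest probe set 5 of the 27 would pass, and 6 with keratin-associated protein genes as the reference.

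Receptors of the monoamines and histamine, the class that holds the known targets of risperidone, were mostly at background. Of 31 measured, 5 were above it (16.1%, beside 61.5% of all genes), and the median level was 3.62. HRH1, the histamine H1 receptor, read 6.18, 6.65, 6.88 and 6.40. ADRA2C, an alpha-2 adrenergic receptor, read 6.34, 6.48, 6.45 and 6.48, HTR1E 5.63, 5.81, 5.75 and 5.62, and HRH3 5.46, 5.60, 5.64 and 5.46. DRD2, the dopamine D2 receptor that antipsychotics block, read 4.85, 4.64, 4.48 and 4.65, at percentile 42.3, and its second probe set stood at 3.43. HTR2A, the serotonin receptor that risperidone binds most tightly, stood at 3.19 and was not above background, and neither were HTR7 (3.68), HTR2C (3.28), ADRA1A (3.97), ADRA1B (3.25), DRD3 (3.80) and DRD4 (4.00). No member reached the median level of the adrenergic regulators. At the dimmest probe sets 3 of the 31 would pass.

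Acetylcholine receptor genes were above background in 7 of 19 cases (36.8%, beside 61.5% of all genes). The highest was the ganglionic nicotinic subunit gene CHRNA3 at 10.88, 11.02, 10.91 and 11.04. Subunits that assemble with it, CHRNA5 (7.25 ± 0.17) and CHRNB4 (5.04 ± 0.25), were lower, and CHRNB2 stood at 7.07 ± 0.07. CHRNB1, a subunit of the muscle receptor, stood at 7.05 ± 0.10, and CHRNG, the subunit of its fetal form, at 4.25 ± 0.10, just above background, whereas the muscle subunit genes CHRNA1 (3.56), CHRND (4.08) and CHRNE (4.07) were not above background. CHRM3, the M3 muscarinic receptor known in SK-N-SH and its subclones, read 7.01, 6.89, 6.01 and 6.67, lowest in replicate 3. The other 4 muscarinic genes lay between 3.36 and 3.90, none above background. At the dimmest probe sets 3 of the 19 would pass.

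Receptor tyrosine kinases and their co-receptors were above background in 23 of 32 cases (71.9%, beside 61.5% of all genes). Their median level was 5.09, beside 5.85 over all genes. RET, the receptor of the glial cell line-derived neurotrophic factor family, read 11.56, 11.51, 11.41 and 11.53. Its co-receptor genes were lower: GFRA2 read 7.99, 7.76, 6.98 and 7.29, GFRA3 4.46, 4.45, 4.07 and 4.52, and GFRA1 stood at 3.78, not above background. PDGFRA, a receptor of mesenchyme, read 10.08, 10.10, 9.87 and 10.21, and AXL, tied to the mesenchymal state in many tumours, 9.83, 9.96, 10.27 and 10.09. The collagen receptors DDR1 (9.24 ± 0.13) and DDR2 (8.67 ± 0.17), MET (8.99 ± 0.22) and FGFR1 (8.20 ± 0.06) came next. ALK, the kinase mutated in part of neuroblastomas, read 6.82, 6.71, 6.30 and 6.53. The neurotrophin receptor genes NTRK2 (3.88) and NTRK3 (3.45) and the stem cell factor receptor gene KIT (3.13) were not above background, and NGFR stood at 4.58 ± 0.10. The count was 15 with keratin-associated protein genes as the reference. It was 7 at the dimmest probe sets, where genes of high level such as PDGFRA (other probe sets from 3.46), DDR1 (from 3.61), MET (from 3.50) and FGFR1 (from 3.32) do not pass.

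**Figure D3:**
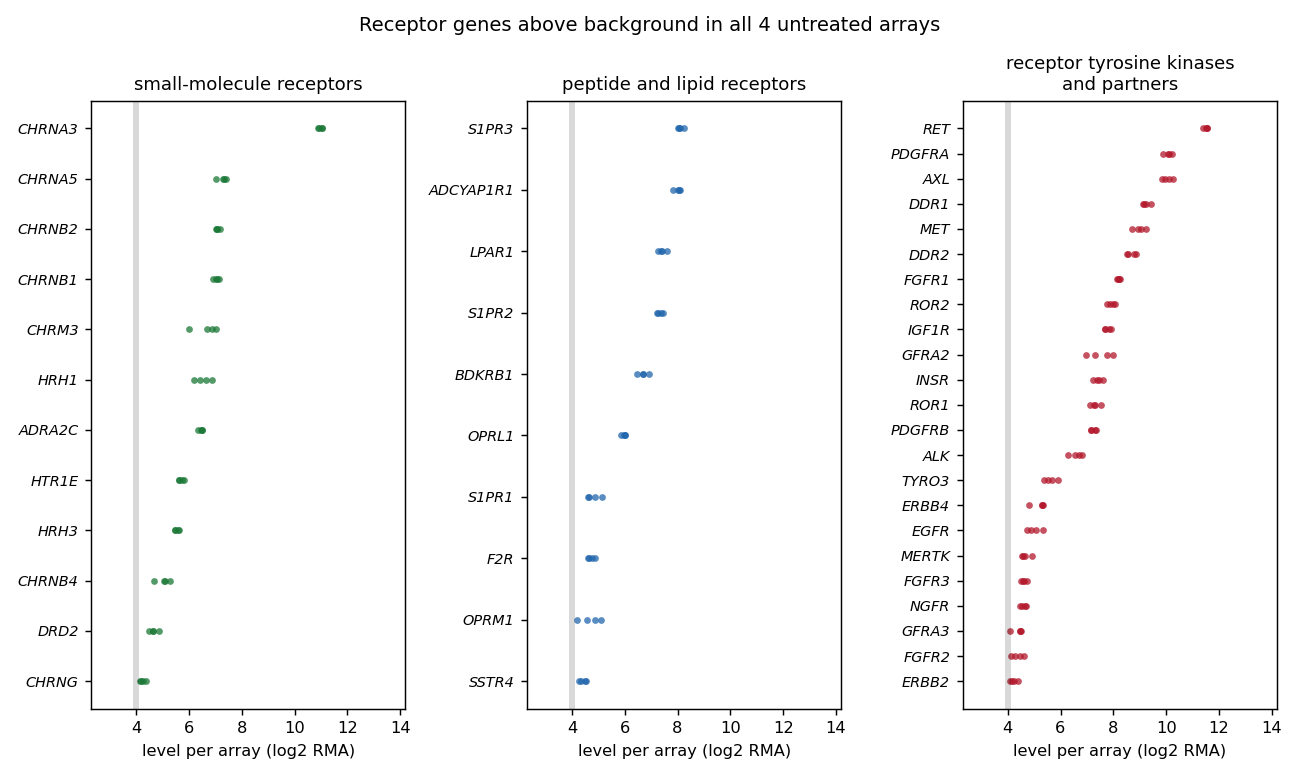
Level (x axis, log2 RMA) of the receptor genes above background, 1 dot per untreated array, for receptors of acetylcholine, monoamines and histamine (left), peptide and lipid receptors (middle) and receptor tyrosine kinases with their co-receptors (right), with the grey band at the background of the 4 arrays. RET (11.50) and the nicotinic subunit gene CHRNA3 (10.96) lie far to the right, while no monoamine or histamine receptor exceeds HRH1 at 6.53.

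Matrix genes were split by family. Of 33 matrix glycoproteins and proteoglycans 30 were above background (90.9%), with a median level of 8.38. Of 40 collagen genes 14 were above it (35%), beside 61.5% of all genes. TGFBI, a cell-adhesive matrix protein, read 12.34, 12.43, 12.45 and 12.40, SPARC, osteonectin, 11.11, 11.18, 11.15 and 11.04, and LAMB1, a basement membrane laminin chain, 10.91, 10.84, 10.90 and 10.84. TNC (10.20 ± 0.11), LAMC1 (10.12 ± 0.13), VCAN (9.96 ± 0.11), FBN1 (9.94 ± 0.11) and the small proteoglycan gene LUM (9.33 ± 0.06) were in the upper range, and DCN (5.42 ± 0.32) and BGN (6.09 ± 0.29) were lower. VTN (3.64), LAMA2 (3.43) and FBN2 (3.20) were not above background. The growth factor-responsive matrix genes CCN2 and THBS1 were uneven between arrays, CCN2 at 8.15, 8.74, 9.28 and 8.99 and THBS1 at 8.85, 9.29, 9.55 and 9.37. At the dimmest probe sets 11 of the 33 and 7 of the 40 would pass.

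COL3A1, a fibrillar collagen of loose connective tissue, read 12.84, 12.81, 12.68 and 12.80, in the top 1% of genes. COL5A2 (10.95 ± 0.07), the microfibril gene COL6A1 (10.91 ± 0.02) and the basement membrane pair COL4A2 (10.56 ± 0.04) and COL4A1 (10.25 ± 0.08) followed. COL1A1 read 8.55, 8.41, 8.22 and 8.28, and COL1A2, whose chain joins that of COL1A1 in type I collagen, 4.83, 4.63, 5.16 and 4.59, with its other probe sets between 3.24 and 3.56. COL6A2, whose chain assembles with those of COL6A1 and COL6A3 (8.76 ± 0.12), stood at 4.18 and was not above background. The type II collagen gene COL2A1 stood at 3.07. Genes of chains that assemble with each other thus read at quite different levels, on probe sets whose affinities are not known.

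Integrin genes were above background in 12 of 26 cases (46.2%, beside 61.5% of all genes). ITGB1, the beta chain shared by most matrix-binding integrins, read 12.87, 12.99, 12.98 and 12.88. Its laminin-binding partner ITGA6 read 10.44, 10.64, 10.87 and 10.76, the RGD-binding chain ITGAV 9.72, 9.87, 9.91 and 9.82, and ITGA9, a receptor chain for tenascin, 9.23, 9.26, 9.37 and 9.39. ITGA5, the chain of the classical fibronectin receptor, stood at 4.26 ± 0.10, close to background, with ITGA4 at 7.37 ± 0.03. ITGAE, the alpha chain of an integrin of mucosal lymphocytes, read 10.87, 10.87, 10.91 and 10.86, while its beta partner ITGB7 (3.83) and the leukocyte chains ITGB2 (3.35), ITGAL (3.67), ITGAM (3.28) and ITGAX (3.84) were not above background. ITGAE has no second probe set. At the dimmest probe sets 6 of the 26 would pass.

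Amino acid transporters were above background in 17 of 28 cases (60.7%, near the 61.5% of all genes). SLC38A2, a neutral amino acid carrier induced when amino acids are scarce, read 11.34, 11.22, 11.24 and 11.34, and SLC38A1, its neuronal relative, 10.63, 10.69, 10.74 and 10.56. SLC38A4 (9.61 ± 0.12), SLC36A4 (9.26 ± 0.06) and the arginine carrier gene SLC7A1 (8.61 ± 0.14) followed. The pair that forms the large neutral amino acid carrier, SLC7A5 and SLC3A2, stood at 7.67 ± 0.18 and 7.65 ± 0.12, and the cystine carrier gene SLC7A11 read 5.88, 6.48, 6.48 and 6.53. Among sugar and monocarboxylate transporters, 7 of 15 were above background (46.7%, beside 61.5% of all genes). SLC2A1, the glucose carrier of most dividing cells, read 9.20, 9.27, 9.25 and 9.33, and the inositol carrier gene SLC5A3 9.42, 9.42, 9.38 and 9.39. SLC2A2 (3.53), SLC2A4 (3.46) and SLC2A5 (3.63), carriers of liver, muscle and gut, and the sodium-coupled SLC5A1 (3.42) were not above background. With dimmest probe sets the counts would be 7 of 28 and 3 of 15.

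Glycolysis genes were above background in 19 of 25 cases (76%, beside 61.5% of all genes), with a median level of 8.96. LDHA, lactate dehydrogenase A, read 13.12, 13.17, 13.29 and 12.98, and LDHB 12.82, 12.98, 12.97 and 13.02. GAPDH stood at 13.04 ± 0.07, ENO1 at 12.46 ± 0.05, TPI1 at 12.41 ± 0.04, PGAM1 at 12.41 ± 0.05, PGK1 at 12.18 ± 0.06 and ALDOA at 11.96 ± 0.04. HK1, the hexokinase of brain, read 11.30, 11.35, 11.38 and 11.45 and HK2, the form raised in many tumours, 9.03, 8.81, 8.69 and 8.98. The brain isozymes ALDOC (8.96 ± 0.11) and ENO2 (7.21 ± 0.15) were above background. So were forms known from muscle, PFKM (10.47 ± 0.04) and ENO3 (6.30 ± 0.11), from liver, PFKL (5.64 ± 0.10), and from red cells, BPGM (7.87 ± 0.20). PKLR (3.57), HK3 (3.80), PGAM2 (4.03), LDHC (3.68), PGK2 (3.34) and GAPDHS (3.18), isozymes of liver and red cells, leukocytes, muscle and testis, were the 6 that were not.

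The citrate cycle and pyruvate entry were almost complete, 21 of 22 above background (95.5%, beside 61.5% of all genes). PDHA2 (3.65), the testis form of a pyruvate dehydrogenase subunit, was the exception. MDH2 read 11.99, 12.10, 12.02 and 12.01 and MDH1 11.90, 12.03, 11.99 and 11.80. CS, citrate synthase, stood at 10.37 ± 0.06, IDH3B at 10.00 ± 0.04 and SDHA at 8.97 ± 0.12. OGDH (5.67 ± 0.09) and PC, pyruvate carboxylase (6.07 ± 0.10), were the lowest above background. Genes of gluconeogenesis, ketone use and the urea cycle were above background in 8 of 17 cases (47.1%, beside 61.5% of all genes). GLUL, glutamine synthetase, read 10.77, 10.76, 10.83 and 10.77, GLUD1 10.17, 10.09, 10.12 and 10.19, and ASL, argininosuccinate lyase, 9.41, 9.19, 8.77 and 8.98. ASS1, the urea cycle step before ASL, stood at 3.95 and was not above background, and neither were PCK1 (3.27), G6PC1 (3.82), OTC (3.22) and ARG1 (3.11), enzymes of liver. CPS1, the liver enzyme that opens the urea cycle, was above it at 4.88 ± 0.13. The mitochondrial forms PCK2 (6.70 ± 0.14) and ARG2 (8.35 ± 0.06) were.

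Sterol synthesis was read throughout, 17 of 17 above background (100%, beside 61.5% of all genes), with a median level of 9.22. CYP51A1, lanosterol demethylase, read 10.35, 10.51, 10.58 and 10.38 and FDPS, which makes farnesyl diphosphate, 10.31, 10.35, 10.41 and 10.36. SQLE (9.55 ± 0.05), IDI1 (9.22 ± 0.15) and HMGCS1 (9.04 ± 0.08) were in the upper range, and MVK (6.02 ± 0.15), HSD17B7 (5.59 ± 0.18) and MVD (5.50 ± 0.12) were the lowest. In fatty acid synthesis 14 of 16 were above background (87.5%, beside 61.5% of all genes). SCD, which makes monounsaturated fatty acids, read 12.25, 12.17, 11.92 and 12.16, ELOVL5 11.51, 11.73, 11.76 and 11.65, and ACLY, which makes cytosolic acetyl-CoA, 11.40, 11.36, 11.41 and 11.38. FASN, the synthase itself, read 6.53, 6.65, 6.18 and 6.57 on its only probe set.

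Serine and folate metabolism was above background in 12 of 15 cases (80%, beside 61.5% of all genes), with a median level of 9.51. TYMS, thymidylate synthase, read 12.34, 12.45, 12.42 and 12.33, the S-adenosylmethionine synthetase gene MAT2A 11.77, 11.88, 11.91 and 11.79, and the mitochondrial folate enzyme gene MTHFD2 11.15, 11.29, 11.34 and 11.25. The serine synthesis genes PSAT1 (10.62 ± 0.16), PSPH (9.99 ± 0.10) and PHGDH (9.37 ± 0.09) were all in the upper range. The liver genes MAT1A (3.63), BHMT (3.35) and GNMT (3.74) were not above background.

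**Figure D4:**
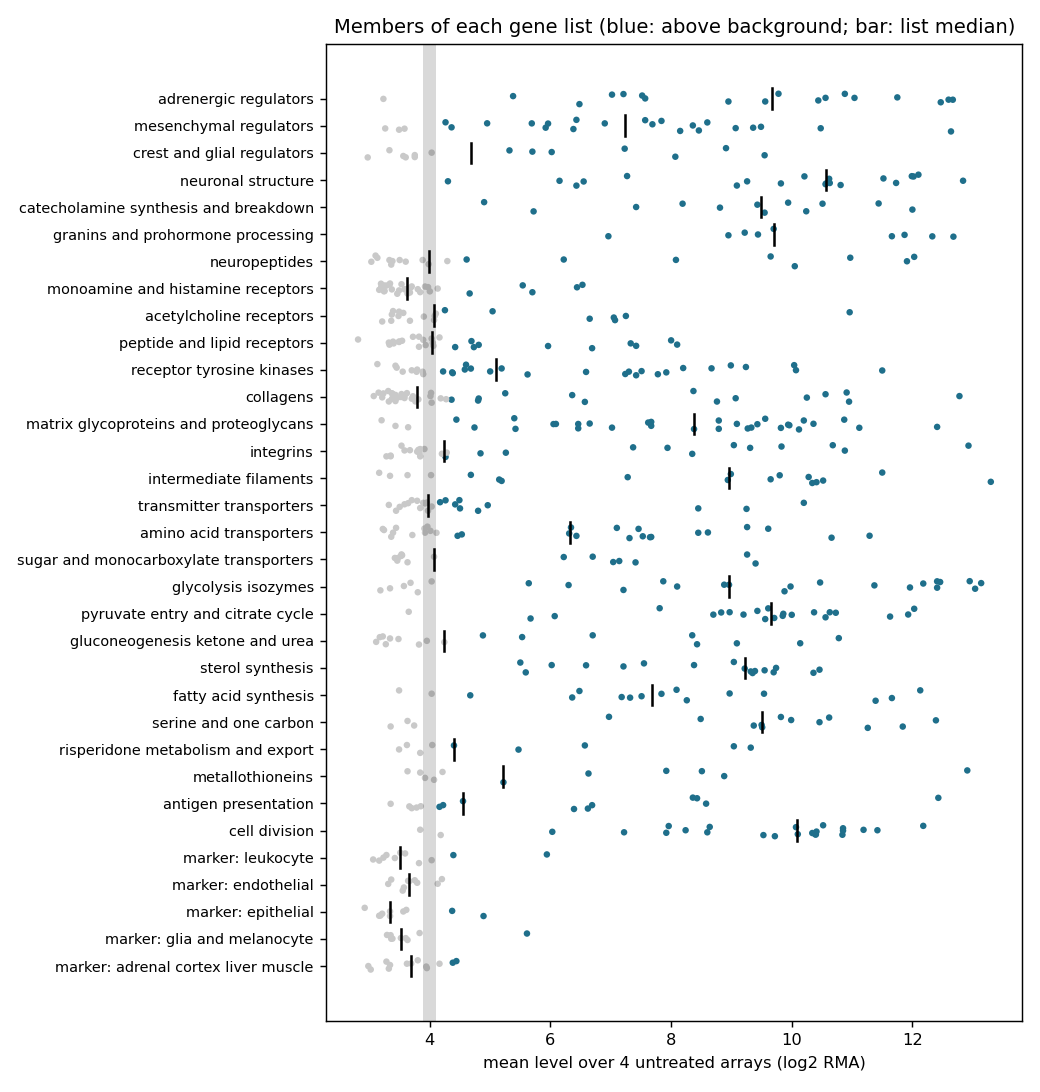
Levels (x axis, log2 RMA, mean of the 4 untreated arrays) of the members of each gene list, 1 dot per gene, with blue dots for genes above background, grey dots for the others, a bar at each list's median and the grey band at the background of the 4 arrays. The medians run from 3.34 in markers of epithelial cells to 10.57 in genes of neuronal structure, beside 5.85 over all genes.

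Of the genes listed for the oxidation and export of drugs such as risperidone, 2 of 3 exporter genes were above background. The main oxidising enzyme of risperidone was not. ABCB1, P-glycoprotein, read 8.89, 9.06, 9.01 and 9.20, and ABCC1 9.32, 9.33, 9.29 and 9.34. CYP2D6, which hydroxylates risperidone in liver, stood at 4.04, and CYP3A4 (3.49), CYP3A5 (3.62) and ABCG2 (3.84) were also not above background. POR, the electron donor of these enzymes, stood at 6.57 ± 0.14, and CYP1A2 (5.47 ± 0.19) and CYP3A7 (4.40 ± 0.08) were above background on 1 of their probe sets. In all 5 of 9 members were above background (55.6%, near the 61.5% of all genes), and 0 of 9 at the dimmest probe sets.

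Metal-binding metallothioneins and the metal-responsive factor MTF1 were above background in 6 of 11 cases (54.5%, near the 61.5% of all genes). MT2A read 12.93, 12.84, 12.96 and 12.90, MT1X 8.87, 8.90, 8.88 and 8.86, and MT1F 8.51, 8.59, 8.51 and 8.42, while the brain form MT3 (4.07) was not above background. Metallothionein genes are near-identical copies, so their probe sets may share signal. Antigen presentation was above background in 10 of 15 cases (66.7%, near the 61.5% of all genes), with B2M, the light chain of class I molecules, at 12.42, 12.52, 12.40 and 12.36, and the class I heavy chain genes HLA-C at 8.58 ± 0.11, HLA-E at 6.62 ± 0.12 and HLA-B at 6.39 ± 0.18. The class I activator gene NLRC5 (3.78) and the class II genes HLA-DRA (3.35) and CD74 (3.66) were not above background. The class II activator gene CIITA (4.55 ± 0.03) was above it, and HLA-DPA1 (4.16 ± 0.04) and HLA-DPB1 (4.22 ± 0.05) barely passed it. Class I heavy chains vary between people and resemble each other, which limits what a probe set of 1 of them measures. At the dimmest probe sets 4 of the 15 would pass.

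Genes of cell division were above background in 22 of 24 cases (91.7%, beside 61.5% of all genes), at a median level of 10.09. PCNA, the replication clamp, read 12.09, 12.13, 12.33 and 12.17, TOP2A 11.44, 11.45, 11.36 and 11.44, CDK1 11.05, 11.18, 11.34 and 11.17, and MKI67, the Ki-67 antigen, 9.77, 9.80, 9.55 and 9.75. CCND1 stood at 10.85 ± 0.05 and CDK4, its kinase partner, at 10.85 ± 0.06, with CCND2 at 3.84, not above background. The cell-cycle inhibitor gene CDKN1A read 10.45, 10.55, 10.56 and 10.51, CDKN1B 9.39, 9.56, 9.70 and 9.46, and CDKN2A 7.77, 7.97, 7.98 and 7.95. MCM5 read 4.05, 4.25, 3.97 and 4.44 on its only probe set and passed background in 3 of the 4 arrays, while MCM2, another subunit of the same helicase, stood at 10.10 ± 0.08.

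Markers of other cell types were mostly at background, 7 of 53 above it (13.2%, beside 61.5% of all genes). Their median level was 3.57. None of the 10 endothelial markers, PECAM1 (3.64), CDH5 (3.36) and VWF (4.13) among them, was above background, nor were the leukocyte antigen gene PTPRC (3.16), the epithelial cadherin gene CDH1 (3.21), or the liver and adrenal cortex genes ALB (3.34) and NR5A1 (3.62). The 7 above it were CD68 (5.94 ± 0.24), MBP (5.61 ± 0.17), CLDN4 (4.89 ± 0.15), MC2R (4.44 ± 0.10), HBB (4.39 ± 0.09), ACTA1 (4.38 ± 0.14) and EPCAM (4.37 ± 0.24). CD68 is a lysosomal gene and MBP is also transcribed outside myelin. The source of the signal was not tested for any of the 7. With the background set at the 90th percentile of olfactory receptor genes, 2 of the 10 endothelial markers would pass.

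The arrays were close to each other, and the spread was not shared evenly among them. Among the 11224 genes above background, 48.8% were lowest in replicate 1 and 41.1% highest in replicate 3, and the median deviation from a gene's own mean was -0.06, 0.03, 0.05 and -0.01 in replicates 1 to 4. In 33 genes above background the range over the arrays was 1 or more. ANKRD1, a muscle ankyrin repeat protein gene known as a target of YAP1, had the widest range at 4.23, 5.13, 6.06 and 5.74, and CCN2, another such target, was among the 12 widest. MMP1, interstitial collagenase, read 6.25, 7.0, 7.74 and 7.28, HMOX1, heme oxygenase 1, 4.85, 4.61, 5.80 and 5.88, and ID4, an inhibitor of helix-loop-helix factors, 4.45, 5.24, 5.69 and 5.24. The other genes among these 12 were NCEH1, ANXA2P3, MXRA5, STEAP1B, DACT1, UBASH3B and ABCA1, and of the 12, 9 were lowest in replicate 1 and 8 highest in replicate 3. ABCA1, the cholesterol exporter, was instead highest in replicate 1 and lowest in replicate 3, at 5.73, 4.97, 4.60 and 4.80.

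The shares of all genes above background, 48.8% lowest in replicate 1 and 41.1% highest in replicate 3, are the measure for single lists. Mesenchymal regulators above background were lowest in replicate 1 in 12 of 21 cases (57.1%) and highest in replicate 3 in 12 (57.1%). Genes of cell division were so in 14 (63.6%) and 13 (59.1%) of 22. Adrenergic regulators were lowest in replicate 1 in 6 of 17 cases (35.3%) and highest in replicate 3 in 4 (23.5%). Genes of neuronal structure were so in 6 (30%) and 3 (15%) of 20. These shares rest on few genes per list. The difference between these lists was not tested. Control probes for RNA integrity gave signal at the 3′ end above that at the 5′ end by 0.18, 0.08, 0.13 and 0.10 for GAPDH and by 1.76, 1.55, 1.94 and 1.84 for ACTB in replicates 1 to 4. These were widest in replicate 1 for GAPDH and in replicate 3 for ACTB, and their part in the differences between arrays was not tested.

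**Figure D5:**
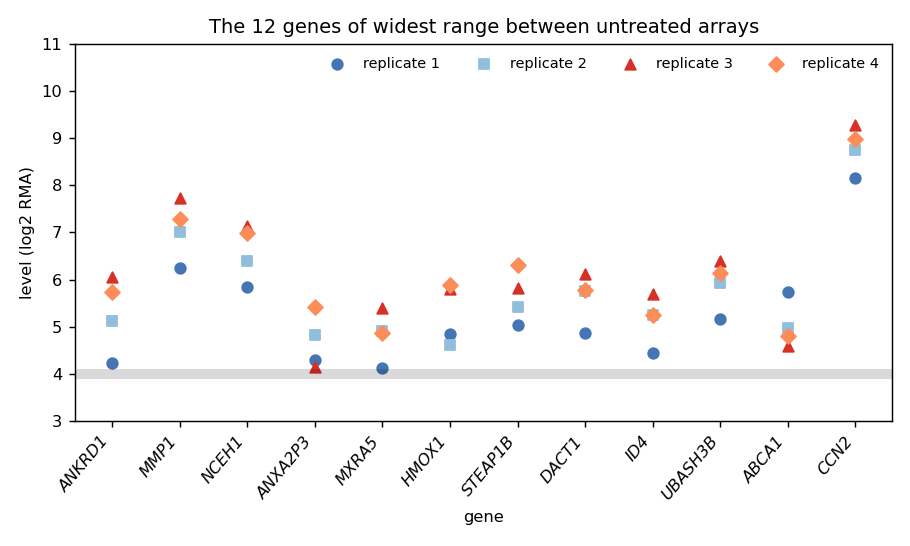
Level (y axis, log2 RMA) in each of the 4 untreated arrays of the 12 genes above background with the widest range between arrays. Replicate 1 is the lowest point for 9 of the 12 and replicate 3 the highest for 8, while ABCA1 is highest in replicate 1. The grey band spans the background levels of the arrays.

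Promoters differed with level in their base composition and motifs. The dinucleotide CG occurred a median of 7 times per 300 bases in the promoters of 4060 genes not above background, and 26, 28 and 28 times in 3 classes of rising level that hold 2198, 2197 and 2197 genes above it, beside 23 in all 10652. The TATA box TATAAA, on either strand, was found in 17.7% of promoters of genes not above background and in 6.69%, 3.41% and 5.64% of the 3 classes, beside 9.99% of all. The 5-base core TGACG of the cyclic AMP response element was found in 20% and then 31.8%, 37.2% and 40.6%, beside 30.2% of all. The full element TGACGTCA, which contains that core, was found in 1.21% and then 3.37%, 4.14% and 4.14%. The TGACG motif contains the dinucleotide CG, so its share and the CG count are not independent. A match describes the letters in the window and shows neither binding nor regulation.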

How the data were processed

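Whole-culture RNA of 16 SK-N-SH samples was measured on U219 arrays, and the 4 untreated ones were analysed. Values were deposited as log2 signals, 1 per probe set and array. RMA is named in the submitters' processing notes, and its software is not given in the sources used here. RMA equalises the distribution of values between arrays, so total RNA per cell cannot be seen. The table holds 49386 probe sets, of which 93 are controls. By the platform annotation, 45253 carry 1 gene symbol, 1327 several and 2713 none. Each of 18239 genes was represented by its single-symbol probe set of highest mean over all 16 arrays.

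Calculations used Python 3.11.15 with pandas 2.3.3 and numpy 2.4.6, and figures matplotlib 3.10.9; the code was tested on simulated data. No test between groups was run. Of 670 genes on 33 lists 626 were measured, and the other 44 were not analysed here. The named genes are the 25 of highest level, the 12 of widest range and list members; HOX, solute carrier and other families were chosen after values were seen. Members and lists were chosen with earlier results of these data known. Promoters come from RefSeq (GRCh38.p14); 10652 genes have exactly 1. Alternatives changed the probe set, the background, the normalization and the arrays used. The number of arrays, 4, limits the precision.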

Additional observations from a re-analysis of the deposited data

Results flagged for a closer look

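Each gene named in the results or under the other observations was checked for an array set apart from the other 3, by Dixon's ratio of gap to range at its 95% critical value. In 26 of these 361 genes (7.2%) an array stood apart, where chance gives about 1 in 20. Replicate 1 was low for VIM (13.16, with the others from 13.34), ELAVL4 (11.85), CHGB (9.52), ZEB1 (9.37), CDKN2A (7.77), NMB (7.87), OPRL1 (5.84), SLC7A11 (5.88, others from 6.48) and VAMP2 (4.17), and high for IDH3B (10.06), HBB (4.52) and MEOX2 (3.34). Replicate 3 was low for GAPDH (12.93), TOP2A (11.36), SOX11 (10.39), NEFM (10.39), GFRA3 (4.07) and NPY5R (3.55), and high for GLUL (10.83) and HOXC4 (8.88). Replicate 2 was high for POR (6.77) and GFAP (3.84) and low for COL2A1 (2.93). Replicate 4 was low for CS (10.29) and LUM (9.24) and high for TPT1 (13.52).

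The gap between the array set apart and the nearest of the others was 0.60 in SLC7A11 and 0.38 in GFRA3. In the genes at background, COL2A1, GFAP, MEOX2 and NPY5R, a set-apart value has no bearing on any count above.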

How the results depend on the processing

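No paired analysis was possible because 1 group is described and no result comes from a test. The 34 counts of genes above background (all genes and 33 lists) were recomputed under 13 alternatives. Subtracting array medians or normalizing quantiles again cannot change a count, since the background is taken within each array. Under the other 11 alternatives, 336 of 374 values were within 1.5 times the count given. All genes above background numbered 7132 with the probe set of lowest mean, 10542 with probe sets averaged per gene, 11746 and 10463 with the background at the 90th and 99th percentile, 9846 with keratin-associated protein genes as reference, and 11237 to 11371 with an array left out.

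With the probe set of lowest mean, counts beyond 1.5 times were 10 for mesenchymal regulators, 3 for crest and glial regulators, 12 for neuronal structure, 7 for catecholamine enzymes, 3 for monoamine and histamine receptors, 3 for acetylcholine receptors, 5 for peptide and lipid receptors, 7 for receptor tyrosine kinases, 7 for collagens, 11 for matrix glycoproteins, 6 for integrins, 5 for transmitter transporters, 7 for amino acid transporters, 3 for sugar transporters, 0 for risperidone handling, 4 for antigen presentation, and 1, 0, 0 and 1 for leukocyte, epithelial, glial and adrenal-liver-muscle markers. That alternative takes a dimmer probe set by construction. With keratin-associated protein genes as reference they were 6 for peptide and lipid receptors, 15 for receptor tyrosine kinases, 3 for transmitter transporters, and 1, 0 and 0 for leukocyte, epithelial and adrenal-liver-muscle markers. The mean of probe sets gave 6 for transmitter transporters and 0, 0 and 1 for epithelial, glial and adrenal-liver-muscle markers. The 99th percentile gave 4 for transmitter transporters and 1, 1 and 0 for leukocyte, epithelial and adrenal-liver-muscle markers. Endothelial markers numbered 2 at the 90th percentile, 2 where the mean of the arrays had to pass the mean background, and 0 to 1 with an array left out (1 without replicate 1).

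Levels of the 361 named genes moved by more than their SD in 253 cases with the mean of probe sets and in 268 with the probe set of lowest mean. Leaving out an array moves a mean by less than its SD by construction. Signal near background limits any statement on genes under about 5, and a gene not above background is not shown to be silent.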

Other observations

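Several gene families outside the lists above were counted after values had been seen. HOX genes, which record position along the body axis, were above background in 10 of 29 cases (34.5%, beside 61.5% of all genes). HOXC6 read 9.90, 9.92, 9.78 and 9.93 in replicates 1 to 4, HOXD8 9.77, 9.81, 9.68 and 9.51, and HOXC4 8.77, 8.75, 8.88 and 8.76. HOXB2 (7.34 ± 0.36, SD, n = 4), HOXC8 (7.28 ± 0.21), HOXD3 (6.68 ± 0.12), HOXD9 (6.44 ± 0.14), HOXC5 (5.55 ± 0.07), HOXC9 (5.43 ± 0.16) and HOXB4 (4.60 ± 0.07) were the other 7. The genes above background thus came from the B, C and D clusters.

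Genes of complexes that every cell needs were also set against background. Their median levels ran from 10.04 in the MCM family to 13.27 in ribosomal protein genes, beside 5.85 over all genes. Such counts therefore cannot show how often a transcribed gene of lower level was read at background. All 12 RNA polymerase II subunit genes, all 12 EIF3 subunit genes and all 9 chaperonin CCT genes were above background, beside 61.5% of all genes. So were 21 of 23 proteasome genes (91.3%) and 74 of 76 ribosomal protein genes (97.4%). The counts were 29 of 30 for NDUF genes of respiratory complex I (96.7%) and 5 of 6 for MCM helicase genes (83.3%). NDUFA13, at 3.48, was the NDUF gene not above background, and MCM5 was the MCM gene. Among families with little known use in this lineage, 0 of 28 taste receptor genes and 10 of 84 keratin-associated protein genes (11.9%) were above it.

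Of 327 solute carrier genes 186 were above background (56.9%, near the 61.5% of all genes). The mitochondrial phosphate carrier gene SLC25A3 stood at 12.68 and the adenine nucleotide carrier gene SLC25A5 at 12.17, followed by the zinc carrier gene SLC39A6 at 11.38, SLC38A2 at 11.29 and the phosphate carrier gene SLC20A1 at 11.13.

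Of 11822 genes with more than 1 probe set, 4331 (36.6%) had probe sets on both sides of background, and the median span between the highest and lowest probe set of a gene was 1.70.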
